A study of Mus musculus with 12 samples.

Results

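The Schlafen genes of the mouse are a family of growth regulators encoded in a cluster on chromosome 11. The 5 genes described here, Slfn1, Slfn2, Slfn3, Slfn4 and Slfn5, were chosen by symbol as a family because Slfn4 was among the largest rises in these data, so the values that chose it are given as a description. All 5 were found among the 18193 genes that had a probe set with a single symbol, and 4 of the 5 passed the filter on low values that left 12921 genes for testing. Slfn3 did not pass it. The 5 genes were read by 8 probe sets of their own, and 1 further probe set annotated to both Slfn4 and Slfn3 belonged to no single member.

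Schlafen proteins share a core named after the family and differ in length. Slfn1 and Slfn2 are short, Slfn3 and Slfn4 carry an additional middle region, and Slfn5 is a long form with a helicase-like end. Slfn1 was described as a gene whose forced expression stops the growth of mouse T cells, and loss of Slfn2 function in mice leaves T cells and monocytes unable to hold a resting state. Slfn4 is known in mouse myeloid cells, where macrophage activation and type I interferon raise it.

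Whole lung RNA from mice of 8 to 12 weeks of age was measured on 12 Affymetrix arrays, 3 in each of 4 groups. The rhPBEF & VALI mice received 20 µg of recombinant human PBEF each (rhPBEF, the secreted form of the enzyme encoded by Nampt) into the trachea, given in water at 1.5 µl per gram, and underwent 4 hours of ventilation with large breaths (tidal volume 30 ml/kg). The rhPBEF mice received the protein alone, the VALI mice (ventilator-associated lung injury) the ventilation alone, and the Control mice PBS. Strain, sex, the interval between instillation and tissue collection, and whether VALI mice received PBS are not stated in the labels, and the protein is human in a mouse. The labels do not say that the 3 arrays of a group came from separate animals, and p-values then reflect only how far the arrays of a group differ, which may be technical. VALI replicate 3 and rhPBEF replicate 2 stood apart in skeletal muscle genes, whose mean over 6 genes was 2.59 and 3.65 above the Control mean there on the log2 scale and lay between -0.34 and 0.18 in the other 10 arrays.

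In the RefSeq gene order of chromosome 11 the protein-coding genes of the cluster run Slfn5, Slfn9, Slfn8, Slfn2, Slfn1, Slfn4, Slfn3 and Slfn14. Slfn2, Slfn1 and Slfn4 are therefore neighbours, and Slfn5 lies at the other end from Slfn3. The promoter windows of RefSeq (build GRCm38.p6, 250 bases before to 50 after the annotated start, all 5 on the + strand) are shown so that Slfn4, Slfn1 and Slfn2, which stood high in the same arrays, can be set beside Slfn3 and Slfn5. The 4 windows of 30 bases, printed 5′ to 3′ with the shared element ACTTCCTGG in capitals, come from chr11:83175103.0-83175132.0 for Slfn4, chr11:83116736.0-83116765.0 for Slfn1, chr11:83065047.0-83065076.0 for Slfn2 and chr11:83191278.0-83191307.0 for Slfn3.
Slfn4 window: ttccggttatACTTCCTGGagtgacgaaat
Slfn1 window: gatgtctcacACTTCCTGGagtgacatcaa
Slfn2 window: cagggctttcACTTCCTGGagggtgacagt
Slfn3 window: ggatgacagaACTTCCTGGgggagggactc

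The element begins 73 bases before the annotated start in Slfn4, 74 in Slfn1, 55 in Slfn2 and 42 in Slfn3, each time on the strand of the gene. Its letters hold TTCC, the complement of the GGAA core that ETS factors bind. On both strands it occurs in 277 of 32851 RefSeq promoter windows of 300 bases (0.843%), and it has no match in the windows of Slfn5, Slfn8, Slfn9, Slfn14 or Slfnl1. The element was picked after these promoters had been read, so its share in them is a description. Slfn3, which holds it too, was near the bottom of the scale in all 12 arrays.

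The whole windows of Slfn4 (chr11:83174936-83175235) and Slfn5 (chr11:82951852-82952151) follow, with capitals marking the shared element in Slfn4 and the core of the interferon-stimulated response element, GAAANNGAAA, in Slfn5.
Slfn4 promoter: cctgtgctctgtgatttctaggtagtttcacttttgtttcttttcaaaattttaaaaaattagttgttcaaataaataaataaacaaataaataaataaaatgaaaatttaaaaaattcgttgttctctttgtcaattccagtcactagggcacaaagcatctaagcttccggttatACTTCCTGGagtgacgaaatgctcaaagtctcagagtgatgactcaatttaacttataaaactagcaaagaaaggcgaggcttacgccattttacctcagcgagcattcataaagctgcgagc
Slfn5 promoter: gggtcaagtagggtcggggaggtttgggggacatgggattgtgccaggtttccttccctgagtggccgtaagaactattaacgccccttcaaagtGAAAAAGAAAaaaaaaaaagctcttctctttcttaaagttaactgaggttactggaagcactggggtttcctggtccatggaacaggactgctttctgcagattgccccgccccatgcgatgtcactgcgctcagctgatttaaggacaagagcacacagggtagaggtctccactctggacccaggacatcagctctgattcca

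The interferon core begins 155 bases before the start of Slfn5, and 3.44% of all windows hold it on either strand. It was matched in Slfn5, Slfn8 and Slfn9 and in none of Slfn1, Slfn2, Slfn3 and Slfn4. The STAT element TTCNNNGAA, present in 8.30% of windows, had no match in any of the 5 members. A kappa B site was searched on both strands as a 10-base pattern starting with GGG and ending with CC, with the bases between partly free. It was present in 8.46% of windows and was matched 43 bases before the start of Slfn1 and 214 bases before that of Slfn9. These matches say only which letters lie in these windows.

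**Figure D1:**
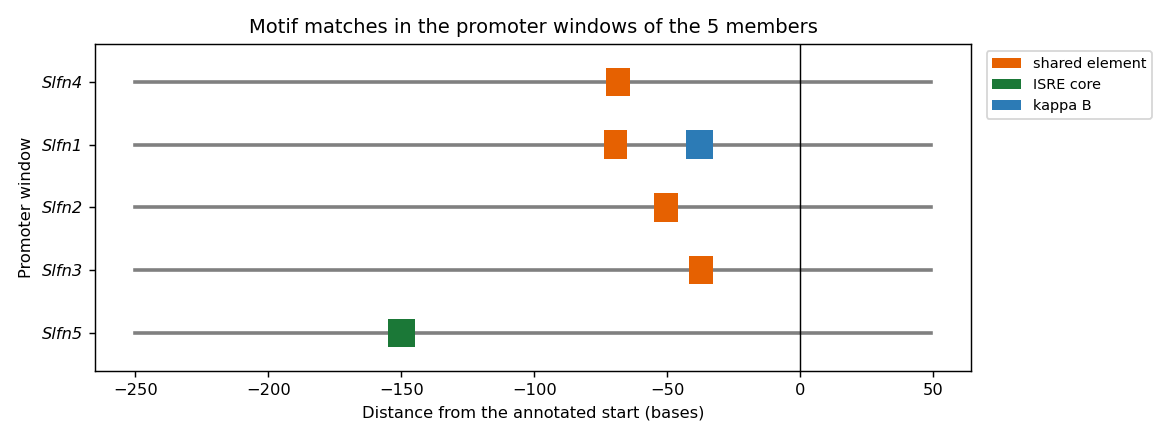
Motif matches in the promoter windows of Slfn4, Slfn1, Slfn2, Slfn3 and Slfn5; the horizontal axis is the distance in bases from the annotated start (vertical line), grey lines are the windows and boxes are matches. The shared element stands between 74 and 34 bases before the start in 4 genes, and Slfn5 has the interferon core from 155 bases before its start.

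Slfn4, the myeloid member, stood low in Control lungs and high in every treated group. Its log2 level was 10.86, 10.25 and 9.62 in the rhPBEF & VALI arrays, 10.74, 9.80 and 9.87 in the rhPBEF arrays, 10.29, 10.57 and 8.06 in the VALI arrays, and 6.14, 5.84 and 6.98 in the Control arrays. No treated array overlapped a Control array, and VALI replicate 3 lay between the Control arrays and the other 8 treated ones. Group means were 10.24 ± 0.62 in rhPBEF & VALI, 10.14 ± 0.53 in rhPBEF, 9.64 ± 1.37 in VALI and 6.32 ± 0.59 in Control (SD, n = 3 each). The 3 treated means lay within the spread of the VALI arrays. The Control mean was below 6.42, the log2 level of the filter, and the table has no detection calls, so the fold is a size as measured.

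Slfn1, the growth-arrest gene of T cells, split the arrays in a similar way at a lower level. It read 9.19, 8.39 and 7.50 in the rhPBEF & VALI arrays, 8.72, 8.23 and 8.19 in the rhPBEF arrays, 8.48, 8.22 and 7.31 in the VALI arrays, and 6.21, 6.17 and 6.51 in the Control arrays. Again no treated array overlapped Control, and replicate 3 was the lowest of its group in all 3 treated groups. A second Slfn1 probe set stayed between 4.07 and 4.51 in all 12 arrays and did not separate the groups, so the account of Slfn1 rests on 1 of its 2 probe sets.

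Slfn2, which keeps T cells and monocytes at rest, was already well measured in Control lungs. Its levels were 11.18, 10.71 and 10.12 in the rhPBEF & VALI arrays, 10.45, 10.67 and 10.38 in the rhPBEF arrays, 10.15, 9.83 and 9.80 in the VALI arrays, and 9.21, 9.09 and 9.12 in the Control arrays. The 3 Control arrays differed by little, with an SD of 0.062, and all 9 treated arrays lay above them. The VALI arrays and the rhPBEF arrays did not overlap, with VALI the lower.

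Slfn5, the long form, read 9.53, 9.57 and 9.01 in the rhPBEF & VALI arrays, 9.33, 9.20 and 8.84 in the rhPBEF arrays, 9.33, 9.38 and 8.82 in the VALI arrays, and 9.34, 8.91 and 9.01 in the Control arrays. All 4 groups overlapped. A second Slfn5 probe set placed the combined treatment above the other 3 groups without overlap, with 9.21, 8.93 and 9.03 in the rhPBEF & VALI arrays against 8.25, 8.57 and 8.41 in the rhPBEF arrays, 8.86, 8.58 and 8.79 in the VALI arrays, and 8.30, 8.83 and 7.94 in the Control arrays. The third Slfn5 probe set lay between 6.53 and 7.40 with all groups overlapping. The probe sets of Slfn5 thus disagree, and the labels do not say which transcript parts they read.

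Slfn3, the neighbour of Slfn4 in the cluster, had levels between 3.66 and 4.25 in the 12 arrays, below the filter. The probe set annotated to both Slfn4 and Slfn3 followed Slfn4, with 8.15, 7.73 and 7.27 in the rhPBEF & VALI arrays, 8.33, 7.25 and 7.11 in the rhPBEF arrays, 7.70, 7.92 and 5.72 in the VALI arrays, and 5.51, 5.42 and 5.71 in the Control arrays. Signal of near-identical relatives in 1 probe set cannot be told apart on this array.

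**Figure D2:**
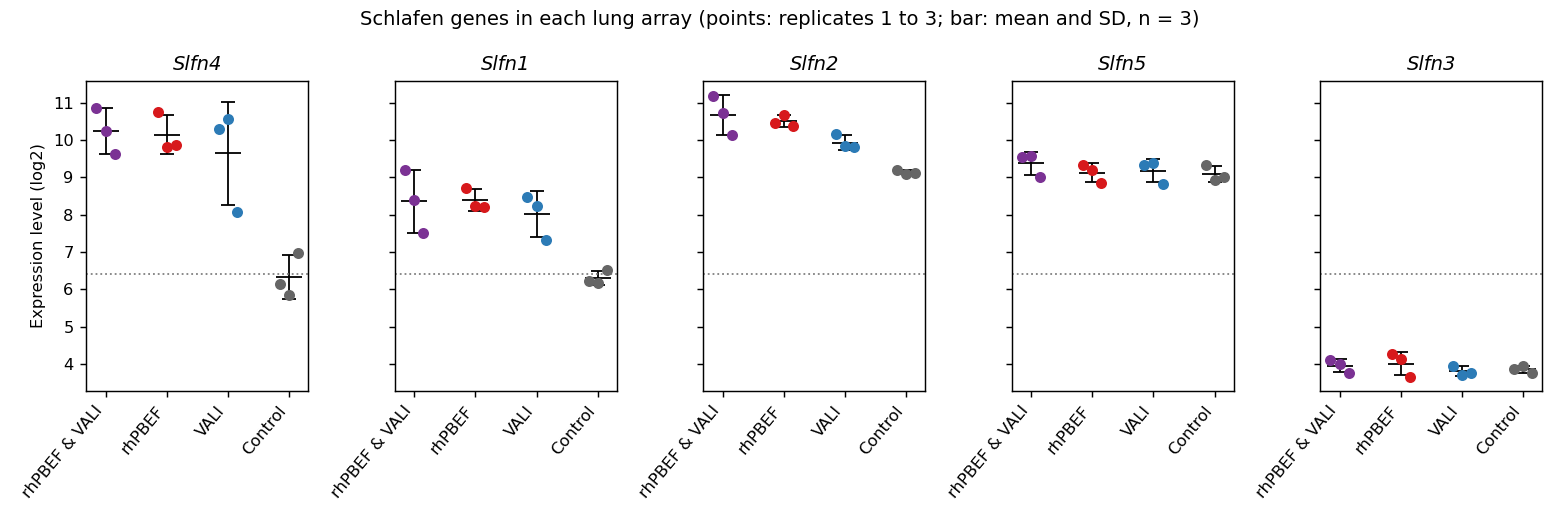
Log2 expression level of each member's main probe set in the 12 arrays; points are replicates 1 to 3, bars the mean and SD of 3 arrays, and the dotted line the filter level of 6.42. Slfn4, Slfn1 and Slfn2 lie above Control in all 9 treated arrays, Slfn5 overlaps in all groups and Slfn3 stays below the filter.

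**Figure D3:**
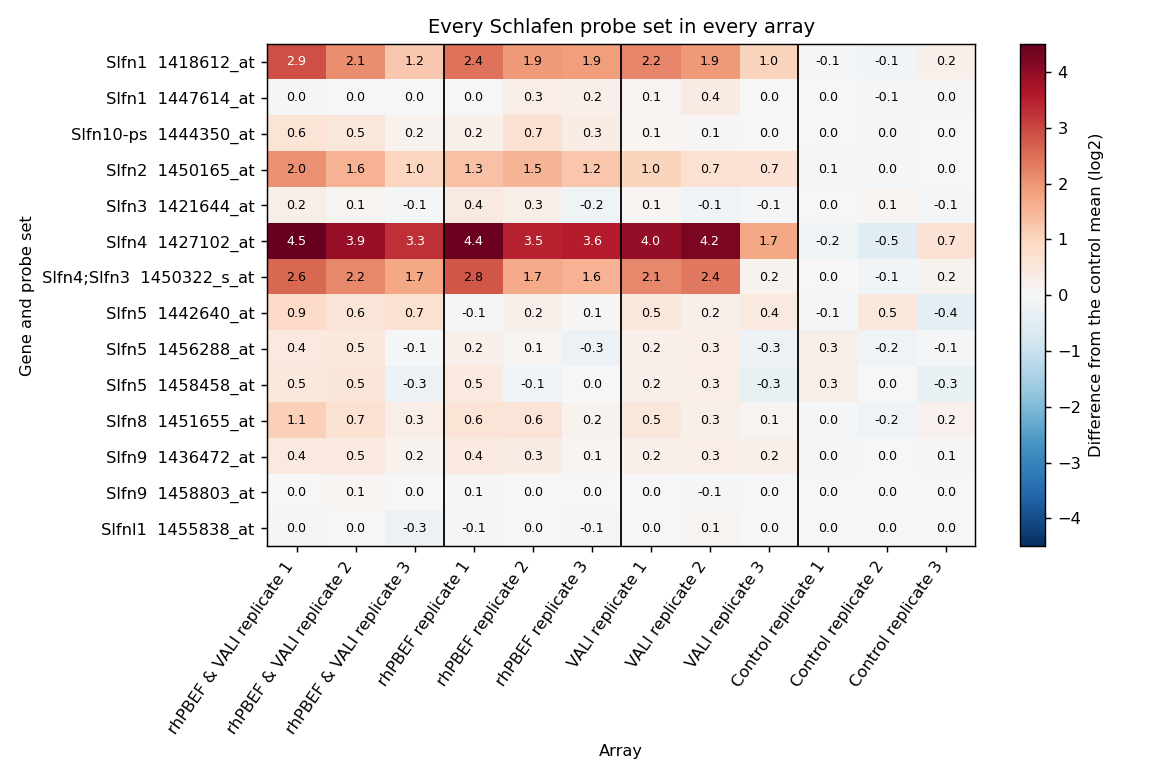
Difference of every Schlafen probe set from its Control mean (log2, colour and number) in the 12 arrays, rows being probe sets and columns arrays. Slfn4, the probe set it shares with Slfn3, Slfn1 and Slfn2 carry the large differences, and VALI replicate 3 is the palest treated array for Slfn4.

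The values that chose Slfn4 are taken to be those of rhPBEF against Control. There Slfn4 stood at 3.82 on the log2 scale (SE 0.60), or 14.1-fold, the 10th largest of the 121 rises, between Ccl20 at 3.88 and Cxcl10 at 3.80. Slfn1 stood at 2.08 (SE 0.39), Slfn2 at 1.36 (SE 0.21), Slfn5 at 0.036 (SE 0.20) and Slfn3, in a fit without the filter, at 0.16. Of all 12921 genes 1.22% passed an adjusted p of 0.05 in this comparison, and in 9.24% every rhPBEF array lay above every Control array, as it did for 3 of the 4 members past the filter. Without rhPBEF replicate 2 the Slfn4 value was 3.99. These are descriptions only.

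Ventilation alone shares the Control arrays with that comparison, and none of Slfn1, Slfn2 and Slfn5 passed the threshold. Slfn4 stood 3.32 above Control on the log2 scale (SE 0.60), or 9.97-fold. Only 1 gene of 12921 had a larger difference upward, and since the statement that chose Slfn4 names no comparison, this value is given as a description. Slfn1 stood at 1.71 (SE 0.39, limma adjusted p 0.127) and Slfn2 at 0.79 (SE 0.21, limma adjusted p 0.159). Slfn5 stood at 0.087 (95% interval -0.36 to 0.53, limma adjusted p 0.851). Over all genes 0.00774% passed in this comparison, 1 gene, which was lower, and 2004 had an unadjusted p under 0.05, among them Slfn1 and Slfn2. In 9.1% of genes every VALI array lay above every Control array, as it did for Slfn4, Slfn1 and Slfn2. This is a description, since Slfn4 was chosen for its rise. Slfn4 and Slfn1, with Control means of 6.32 and 6.30, passed the filter through their treated arrays. Without VALI replicate 3 the Slfn4 difference was 4.11. The same array was high in skeletal muscle genes and low in neutrophil markers, whose mean stood 0.63 above Control there and 2.62 and 2.47 above it in the other VALI arrays. The part of either in the result was not tested.

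In the combined treatment against Control, Slfn1 and Slfn2 passed the threshold upward. This comparison too shares the Control arrays with the values that chose Slfn4, so its tests are not independent of that choice. Slfn1 averaged 8.36 ± 0.84 in rhPBEF & VALI lungs and 6.30 ± 0.19 in Control lungs (SD, n = 3 each), a difference of 2.06 (SE 0.39), 4.17-fold, with a limma adjusted p of 0.0147. Its Control mean lay below the filter level of 6.42, so Slfn1 passed the filter through its treated arrays and its fold is a size as measured; without the filter the limma adjusted p was 0.0171. Slfn2 averaged 10.67 ± 0.53 in rhPBEF & VALI lungs and 9.14 ± 0.062 in Control lungs (SD, n = 3 each), a difference of 1.53 (SE 0.21), 2.89-fold, with a limma adjusted p of 0.00499. Slfn5 stood at 0.28 (SE 0.20, limma adjusted p 0.398), and its second probe set at 0.70 with a limma adjusted p of 0.0504 when it stood for the gene. Slfn4 stood at 3.92, 15.2-fold, again given as a description. In this comparison 8.79% of all genes passed, and in 12.5% every rhPBEF & VALI array lay above every Control array. Slfn4, Slfn1 and Slfn2 were among the latter. This is a description, since Slfn4 was chosen for its rise and both Slfn4 and Slfn1 passed the filter through their treated arrays. The Slfn1 call depended on single arrays: its adjusted p lay between 0.056 and 0.0639 without Control replicate 1 or 2, or without rhPBEF & VALI replicate 1 or 2.

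Adding rhPBEF to ventilation compares the means of 6 arrays, none of which enters the difference between rhPBEF and Control, although the spread is pooled over all 12 arrays. By the main probe sets no member passed, where 0.325% of all genes did. None had all rhPBEF & VALI arrays above all VALI arrays, where 4.05% of all genes did. The second Slfn5 probe set stood at 0.31 (95% interval -0.097 to 0.72) in a fit of all probe sets, without overlap. Slfn2 stood at 0.74 (SE 0.21, 95% interval 0.27 to 1.21) with a limma adjusted p of 0.236 (unadjusted p 0.00509). Without rhPBEF & VALI replicate 3 it was 1.02 with a limma adjusted p of 0.00783. Slfn4 stood at 0.61 (95% interval -0.71 to 1.92, limma adjusted p 0.787), Slfn1 at 0.36 (95% interval -0.50 to 1.21, limma adjusted p 0.808) and Slfn5 at 0.20 (95% interval -0.25 to 0.64, limma adjusted p 0.795). Without VALI replicate 3 the Slfn4 difference was -0.18. The interval of Slfn4 is wide enough to hold a fold of 3.78 upward.

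Adding ventilation to rhPBEF shares the rhPBEF arrays with the values that chose Slfn4, so Slfn4 is given as a description. It stood at 0.11 (95% interval -1.21 to 1.42). None of Slfn1, Slfn2 and Slfn5 passed the threshold. Slfn1 stood at -0.021 (95% interval -0.88 to 0.83), Slfn2 at 0.17 (95% interval -0.30 to 0.64) and Slfn5 at 0.25 (95% interval -0.20 to 0.69), each with a limma adjusted p of 0.999. Here 0.00774% of all genes passed, 1 gene, and 5.12% had every rhPBEF & VALI array above every rhPBEF array, as no member did by its main probe set. The second Slfn5 probe set stood at 0.64 (95% interval 0.23 to 1.05) in a fit of all probe sets, without overlap. Without rhPBEF replicate 2 the Slfn4 difference was -0.065. These intervals do not show that the groups are alike.

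The interaction is the effect of rhPBEF in ventilated lungs minus its effect in unventilated lungs. It subtracts the difference between rhPBEF and Control, by which Slfn4, and through it the family, was chosen. It is therefore given for the members without a test. It was -3.21 for Slfn4 (SE 0.84), -1.73 for Slfn1 (SE 0.55), -0.62 for Slfn2 (SE 0.30) and 0.16 for Slfn5 (SE 0.29). By limma 0% of genes passed, and 288 of 12921 had an unadjusted p under 0.05. Averaged over rhPBEF status, ventilation gave 1.71 for Slfn4 (SE 0.42), as a description since it draws on the arrays that chose that gene. It gave 0.84 for Slfn1 (SE 0.27, limma adjusted p 0.186), 0.48 for Slfn2 (SE 0.15, limma adjusted p 0.178) and 0.17 for Slfn5 (SE 0.14, limma adjusted p 0.573), where 0.549% of genes passed. Without the 2 arrays high in muscle genes, Slfn4 stood at 2.02.

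**Figure D4:**
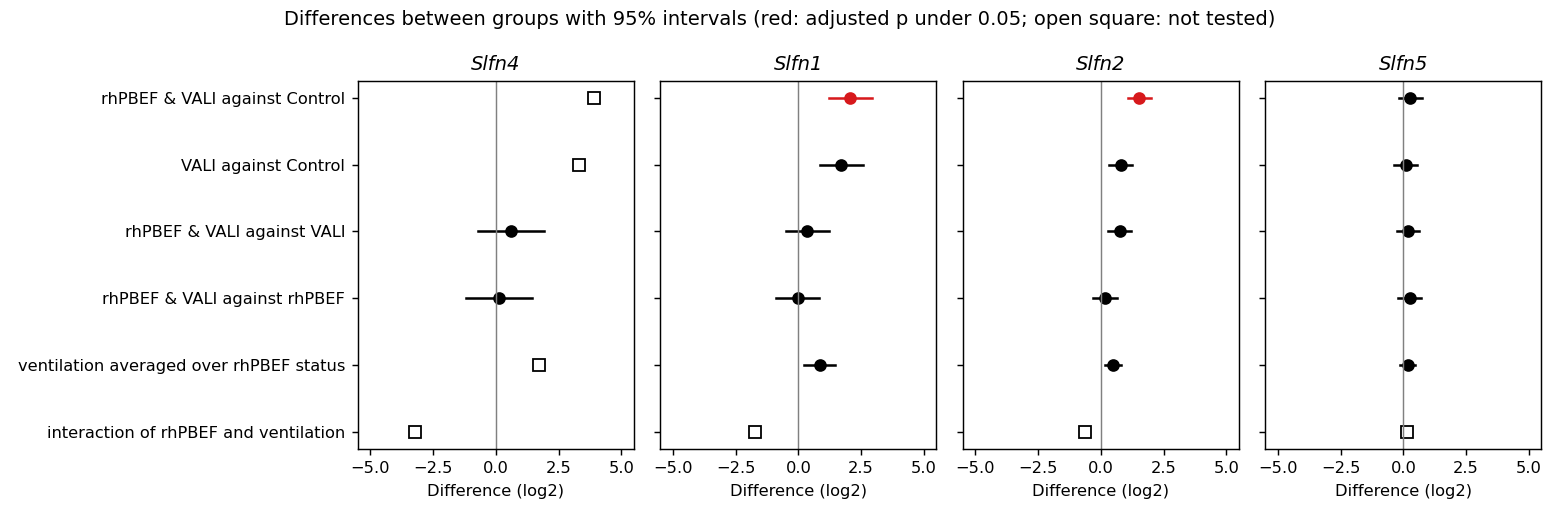
Differences between groups (log2) for Slfn4, Slfn1, Slfn2 and Slfn5 in 6 comparisons, with 95% intervals; red marks an adjusted p under 0.05 and open squares are descriptions without a test. Only Slfn1 and Slfn2 in the combined treatment against Control are red, at 2.06 and 1.53. That comparison shares its Control arrays with the values that chose Slfn4. Slfn4 in rhPBEF & VALI against rhPBEF is drawn with its interval but is also a description.

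Among the other Schlafen genes, Slfn8, a long form, stood at 0.69 after the combined treatment (SE 0.19), averaging 6.88 ± 0.39 in rhPBEF & VALI lungs and 6.19 ± 0.17 in Control lungs (SD, n = 3 each). Its limma adjusted p was 0.0483 with the filter, which its Control mean did not reach, and 0.0577 without it. Slfn9, another long form, stood at 0.35 (SE 0.10, limma adjusted p 0.0548). Slfnl1, which lies on chromosome 4, stood at -0.078 (limma adjusted p 0.591). Slfn10-ps lay between 3.82 and 4.54, below the filter.

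The genes whose profile over the 12 arrays was closest to that of Slfn4, after each gene was centred on its mean, were S100a9, S100a8, Clec4d, Il1b and Il1r2. Their root mean square differences from it were 0.30, 0.42, 0.47, 0.52 and 0.52 on the log2 scale. S100a9 and S100a8 encode calprotectin, an abundant neutrophil protein, Clec4d a lectin receptor of myeloid cells, Il1b interleukin 1 beta and Il1r2 its decoy receptor. For Slfn1 they were the glucose transporter gene Slc2a3 at 0.30, the myeloid receptor gene Cd300lf at 0.31 and Csf2rb, a shared cytokine receptor chain, at 0.31. For Slfn2 they were the ubiquitin ligase gene Rnf149 at 0.16, the interleukin 18 receptor gene Il18rap at 0.17 and the adaptor gene Lcp2 at 0.17.

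Neutrophil markers moved with Slfn4. The mean log2 level of the 13 tested markers was 9.75 to 11.43 in the rhPBEF & VALI arrays, 10.08 to 10.42 in the rhPBEF arrays, 8.73 to 10.73 in the VALI arrays and 7.96 to 8.22 in the Control arrays. In all, 9 of 13 rose after the combined treatment, among them S100a9 by 3.38 and Il1r2 by 3.54. There 8.79% of all genes passed in either direction. After rhPBEF 4 of 13 rose, where 1.22% of all genes passed. After ventilation alone 0 of 13 rose, where 0.00774% of all genes passed. The median difference of the markers after ventilation was 1.71 against -0.039 over all genes. Clec4e is counted in both sets of rises, but its Control mean of 6.11 lay below the filter level of 6.42. It passed the filter through its treated arrays. Camp lay below the filter, and Retnlg, Ly6g and Fpr1 are not analysed here. In whole lung, more cells of a type and more RNA per cell cannot be told apart, and the part of neutrophils in the Schlafen values was not tested.

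Interferon-stimulated genes followed a pattern of arrays that differed in part from that of Slfn4. Their mean over 20 genes stood 1.0, 1.0 and 0.23 above the Control mean in the rhPBEF & VALI arrays, 0.97, 0.76 and 0.26 in the rhPBEF arrays, and 0.27, 0.17 and 0.07 in the VALI arrays. VALI replicates 1 and 2, where Slfn4 was 3.97 and 4.25 above Control, were low in this list. So were rhPBEF & VALI replicate 3 and rhPBEF replicate 3, where Slfn4 was 3.30 and 3.55 above Control. Other arrays went together. VALI replicate 3 was the lowest treated array for the list and for Slfn4 (0.07 and 1.74). Replicate 1 was the highest rhPBEF array for both (0.97 and 4.42). The part of interferon in the Slfn4 values was not tested. Of the 20 genes 5 rose after the combined treatment, beside 8.79% of all genes past the threshold. They were Cxcl10 by 3.90, Gbp2 by 1.84, Rsad2 by 1.58, Ifit1 by 1.27 and Gbp3 by 1.27. After rhPBEF Cxcl10 alone passed, beside 1.22% of all genes, and after ventilation 0 passed, beside 0.00774%. That last share is 1 gene of 12921, so 0 of 20 says nothing particular of this list. Of 11 interferon pathway genes Jak2, a cytoplasmic kinase that works with cytokine receptors, rose by 0.74 and the transcription factor Irf5 by 0.67 after the combined treatment, and 0 passed after rhPBEF or after ventilation. With 8.79% of all genes past the threshold after the combined treatment, 2 of 11 says nothing particular of this list. Nor does 0 of 11 beside 1.22% of all genes after rhPBEF and 0.00774% after ventilation. Ifnb1, Ifna4 and Ifng were below the filter.

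The list of lymphocyte quiescence and cell cycle entry, the process Slfn2 is known for, held 15 tested genes. After the combined treatment Btg1, an antiproliferative gene, rose by 0.74 and Klf2, a transcription factor of resting T cells and of endothelium, fell by 1.18, and 13 did not pass. Beside the 8.79% of all genes, 2 of 15, with 1 in each direction, says nothing particular of this list. After rhPBEF alone and after ventilation alone 0 of 15 passed, beside 1.22% and 0.00774% of all genes, which says nothing particular either. Markers of T and NK cells (12 tested) and of B cells (5 tested) had 0 past the threshold in all 3 comparisons with Control. Beside 8.79% of all genes after the combined treatment, and the smaller shares after rhPBEF and ventilation, these counts do not show that lymphocytes were unchanged. Among 13 monocyte and macrophage markers, Marco, a scavenger receptor, rose by 1.65 and Siglecf, a marker of alveolar macrophages, fell by 1.03 after the combined treatment, 2 of 13 beside 8.79% of all genes, and Marco rose by 1.93 after rhPBEF. The lung label held against its markers: the 10 lung epithelial and endothelial genes averaged 13.20 to 13.53 in all 12 arrays, and 1 of these 10, Cldn18, fell by 0.32 after the combined treatment, beside 8.79% of all genes.

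**Figure D5:**
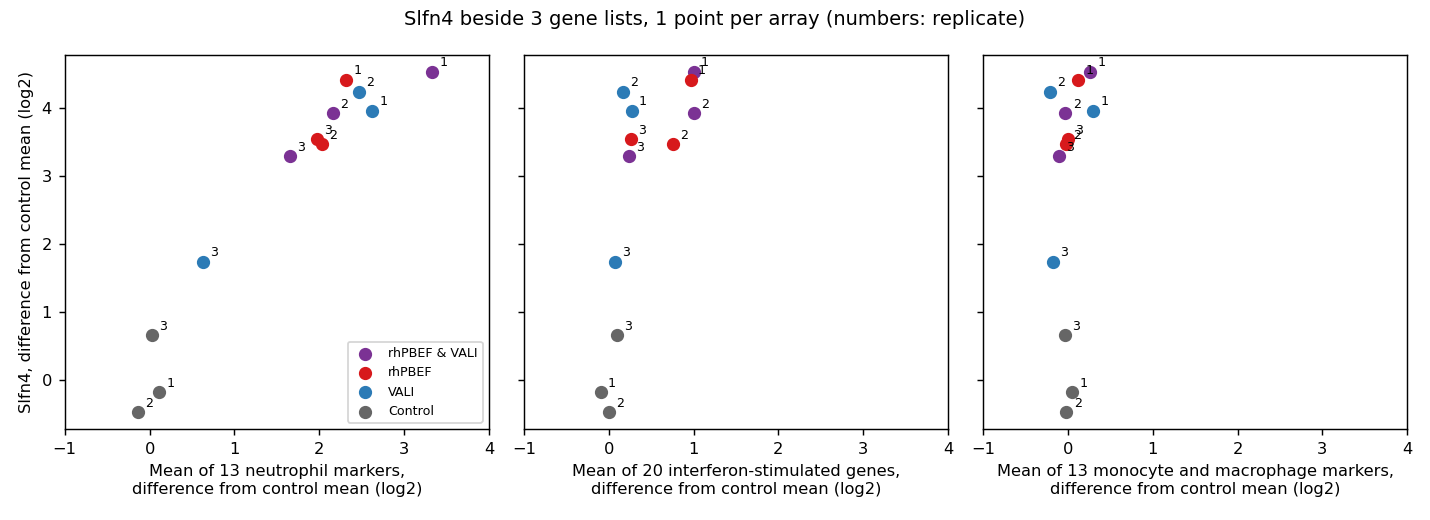
Slfn4 (vertical axis) against the mean of neutrophil markers, interferon-stimulated genes and monocyte and macrophage markers (horizontal axes), all as log2 differences from the Control mean, 1 point per array. Along the neutrophil axis VALI replicate 3 lies at 0.63, between Control and the other treated arrays. VALI replicates 1 and 2 stand near the top of the Slfn4 axis with interferon values of 0.27 and 0.17. VALI replicate 3 is the lowest treated array on both the Slfn4 and the interferon axis.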

How the data were processed

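The authors deposited log2 values for each probe set on each array; array medians of 7.00 to 7.07 show that they were scaled between arrays. MAS5 and GCRMA are named, without role or version, per the submitters' processing notes. Groups came from the sample titles and treatment protocols; a description naming every animal a control was not used. Precision is limited by 3 arrays per group. Of 45037 non-control probe sets, 27022 with a 12-array mean above the 40th percentile (log2 6.42) were kept, and each gene was read by its highest-mean probe set with 1 symbol. Group means were modelled in limma 3.58.1 (R 4.3.3) with Benjamini-Hochberg adjustment over 12921 genes and a threshold of 0.05; an exact 3 against 3 test cannot go below 0.1. Fits were tested on simulated data. The named genes are the members, other Schlafen genes, from each list the 4 with the largest difference in rhPBEF & VALI against VALI, and the closest profiles; Rsad2 and Klf2 were named after their values were seen. Planned tests of Slfn4 against Control, in rhPBEF & VALI against rhPBEF and in averaged ventilation are given as descriptions. So is the interaction of the members. All of these may draw on the values that chose Slfn4. Members and lists were chosen with earlier results of these data known. Alternatives changed the filter, scaling, variance model, probe set choice, arrays and replicate block.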

Additional observations from a re-analysis of the deposited data

How the results depend on the processing

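Over all alternatives, 560 of 584 member differences were counted as unchanged in direction and side of the threshold. The count includes Slfn5 in rhPBEF against Control, 0.036, as unchanged although it turned negative in some fits. These were the fits without Control replicate 2 (-0.050) or 3 (-0.0036), or without rhPBEF replicate 1 (-0.068) or 2 (-0.0028). Many differences could not move, since leaving out an array of a group not compared leaves the difference as it was. For ventilation against Control the number of genes past 0.05 was 4 with a trended, robust variance, 4 with probe sets averaged, 2 with the probe set of highest SD, 0 with only the arrays compared, 0 with the replicate block and 34 without the 2 arrays high in skeletal muscle genes, against 1. Without those 2 arrays, VALI replicate 3 and rhPBEF replicate 2, Slfn4 stood at 4.11. For rhPBEF & VALI against VALI, 3 genes passed with only the arrays compared and Slfn4 was -0.18 without the 2 arrays. For rhPBEF & VALI against rhPBEF the count was 2 with probe sets averaged, 0 with only the arrays compared, 0 with the replicate block and 0 without the 2 arrays, where Slfn4 was -0.065. The interaction had 2 genes without the 2 arrays. Ventilation averaged over rhPBEF had 40 genes without a filter, and Slfn4 at 2.02 without the 2 arrays. Slfn8 in rhPBEF & VALI against Control lost its call without the filter (limma adjusted p 0.0577), where more genes are tested. The causes were not tested otherwise.

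Leaving out each array in turn gave 44 to 358 genes for rhPBEF against Control, 0 to 43 for VALI, 152 to 2498 for rhPBEF & VALI, 13 to 406 for rhPBEF & VALI against VALI, 0 to 3 against rhPBEF, 0 to 4 for the interaction and 6 to 555 for averaged ventilation. Slfn1 ran from 1.65 to 2.49 in rhPBEF & VALI against Control, -0.057 to 0.79 against VALI, -0.43 to 0.41 against rhPBEF and 0.64 to 1.06 for averaged ventilation. Slfn2 ran from 0.49 to 1.02 in rhPBEF & VALI against VALI, -0.086 to 0.44 against rhPBEF and 0.35 to 0.62 for averaged ventilation. Slfn4 ran from 2.85 to 4.11 in VALI against Control, -0.18 to 1.07 in rhPBEF & VALI against VALI, -0.20 to 0.42 against rhPBEF and 1.48 to 2.11 for averaged ventilation. Averaged ventilation passed for Slfn1 and Slfn2 without rhPBEF & VALI replicate 3. Slfn5 ran from -0.016 to 0.27 in VALI against Control and -0.021 to 0.34 for the interaction. Individual reversals were 0.15 and 0.41 for Slfn1, -0.086 for Slfn2, and -0.065, -0.028 and -0.20 for Slfn4 in rhPBEF & VALI against rhPBEF.

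Whether the replicate numbers pair the arrays cannot be settled with 3 arrays per group. Deviations of same-numbered arrays correlated at -0.21 to 0.53 (median 0.065, 18 pairs) and of others at -0.53 to 0.33 (median -0.062, 36 pairs). Replicate 3 was the lowest of its group in every treated group for Slfn1, Slfn2 and the main probe set of Slfn5, though not for Slfn4. With the replicate block, Slfn1 in rhPBEF & VALI against Control had an adjusted p of 0.00856 by limma, and no member call changed. Only the arrays compared could not be tried for the interaction or the average, which use all 12. Low levels cannot be told from background.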
